A study of Mus musculus with 6 samples.

Results

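The genes described here are the nuclear genes of respiratory complex I, taken as all genes whose symbol starts with Nduf on probe sets annotated to exactly 1 symbol. The rule gave 44 genes of 18193, read by 88 probe sets. Each gene is represented by its brightest probe set, the one with the highest mean over all 6 arrays. By known role, 34 encode subunits of complex I, 8 encode assembly factors and 2, Ndufa4 and Ndufa4l2, carry the name but are not counted as complex I subunits. Expression was measured in Balb/c mouse leukaemia cells driven by BCR-ABL1, the fusion kinase of Philadelphia chromosome-positive acute lymphoblastic leukaemia. AID-/- leukaemia was read on 3 arrays, and AID+/+ leukaemia on 3. BCR-ABL1 and the strain are common to both groups. Animal age, treatment, the cells of origin and whether a leukaemia was clonal or pooled are not given in the labels, and the replicates are called biological there without naming animals or cultures. If they share a source, every p-value here covers no more than the spread of these arrays, which may be technical. A difference is the AID-/- group mean minus the AID+/+ group mean in log2 units, given with limma's standard error (SE). A gene was called at a Benjamini-Hochberg adjusted p under 0.05 over all 18193 genes.

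Complex I is the entry point of electrons from NADH into the respiratory chain of mitochondria. Its matrix arm holds the N module, which oxidises NADH, and the Q module, which passes the electrons through iron-sulphur clusters to ubiquinone, while its membrane arm pumps protons. The core subunits of the pump are encoded in mitochondrial DNA. The core subunits of the matrix arm and all accessory subunits are encoded in the nucleus, and assembly factors join the modules without staying in the finished enzyme. In rapidly dividing lymphoid cells, complex I also supplies the oxidised NAD needed to make aspartate and nucleotides.

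The deposited values ran on a log2 scale. Array medians were 4.847, 4.875 and 4.865 on AID-/- arrays and 4.877, 4.897 and 4.900 on AID+/+ arrays. The AID-/- medians all lay slightly below the AID+/+ medians. Of 6 measured B-lineage markers none passed the test (1 had an unadjusted p under 0.05), and their mean lay at 11.34 to 11.55 on AID-/- arrays and 11.29 to 11.56 on AID+/+ arrays. The 27 measured markers of T cells, myeloid, erythroid, NK, stromal, endothelial and megakaryocytic cells had means between 2.76 and 6.84, with Lyz2 higher and Klrd1 lower in AID-/- leukaemia. The myeloid marker Lyz2 read 5.69 to 6.46 on AID-/- and 4.96 to 5.49 on AID+/+ arrays, and Itgam, another, read 3.64 to 5.54 and 3.16 to 3.58 without passing (limma adjusted p = 0.129). The mean of the 7 myeloid markers overlapped between the groups, at 4.21 to 4.37 and 4.09 to 4.42, and the part of such cells in the results below was not tested. Xist was at 11.93 to 12.18 in AID+/+ and 4.35 to 6.02 in AID-/- leukaemia, so the sex of the cells and AID status cannot be told apart here. The 3′ minus 5′ control probe sets, a sign of RNA integrity, overlapped between the groups, at -0.07 to -0.02 and -0.07 to 0.05 for Gapdh and 0.37 to 0.45 and 0.25 to 0.55 for Actb in AID-/- and AID+/+ arrays. In such bulk samples, a change in the mix of cells and a change in RNA per cell cannot be told apart.

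Complex I genes were mostly somewhat higher in AID-/- leukaemia. Of the 44 genes, 10 rose and 1 fell, or 22.7% and 2.27%, against 9.93% of all genes called higher and 8.21% called lower (18.1% called in all). The median difference of the 44 was 0.25, against -0.03 for all genes, and 32 of the 44 differences were above 0, against 43.9% of all genes. All differences were small: none of the 44 reached 1 log2 unit, which 5.33% of all genes did, and they ran from -0.51 to 0.94. The 3 AID-/- arrays stood at median offsets of 0.20, 0.19 and 0.26 from the AID+/+ mean of each gene. The 3 AID+/+ arrays stood at -0.05, 0.01 and 0.05, so each AID-/- array lay above each AID+/+ array. Over all genes the offsets separated the groups too, but the other way and by less. They were -0.046, -0.015 and -0.026 on AID-/- arrays and -0.014, -0.004 and 0.012 on AID+/+ arrays. For 26 of the 44 genes the AID-/- values lay wholly above the AID+/+ values, and for 4 wholly below, against 17.5% and 19% of all genes (36.5% either way). Of these, 16 and 3 were not called, and 8 higher and 3 lower genes had an adjusted p between 0.05 and 0.10. The 10 became 16 with each array centred on its median, where 11% of all genes were called higher, and 17 with the mean of all probe sets of a gene, where 9.67% were.

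**Figure D1:**
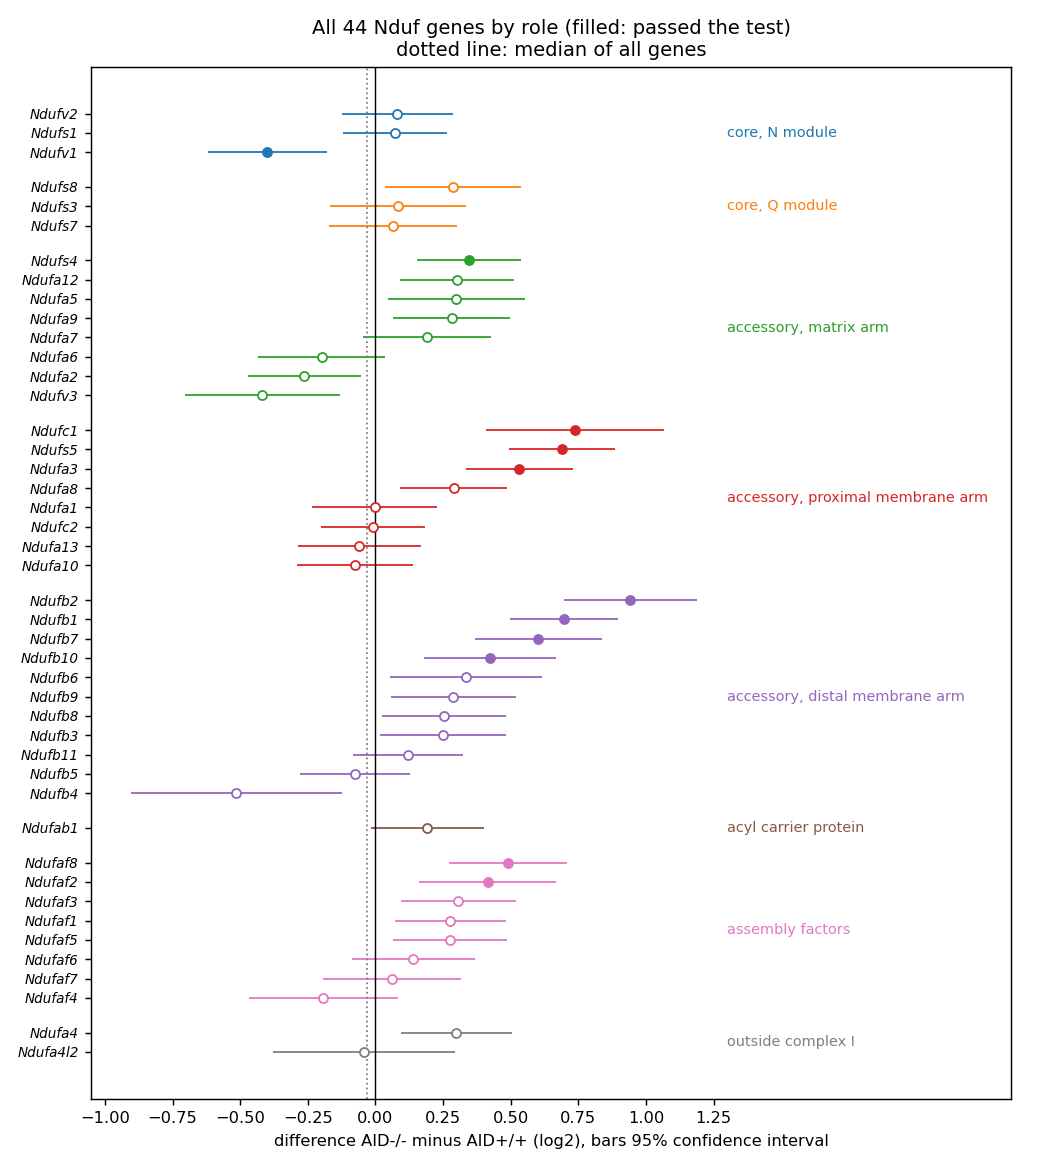
Difference between AID-/- and AID+/+ leukaemia for each of the 44 Nduf genes, on the log2 scale, grouped by role, with points for the limma estimate and bars for its 95% confidence interval. Filled points passed the test; the dotted line is the median of all genes at -0.03, and most accessory and assembly genes lie to its right.

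These shares can also be set beside genes of like brightness. Of the 44 genes, 32 had a mean above 10, against 9.07% of all genes. Among all genes above 10, a level chosen after the data were seen, 14.1% were called higher and 11.8% lower. Of the 32 bright complex I genes 5, or 15.6%, were called higher, near that background, and 1, or 3.12%, lower. When dim probe sets were left out of the fit, 15 of 43, or 34.9%, were called higher against 16.6% of all genes that remained, and 2, or 4.65%, were called lower against 13.4%.

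Core subunits of the N module differed little except for Ndufv1. Ndufv1, the subunit that binds NADH and the flavin cofactor, was at 10.27, 10.13 and 10.30 on the AID-/- arrays and 10.53, 10.66 and 10.71 on the AID+/+ arrays. The groups did not overlap. Ndufv1 fell by 0.40 (SE 0.10, limma adjusted p = 0.0216), from 10.64 ± 0.09 to 10.24 ± 0.09 (SD, n = 3 arrays), or 1.32-fold. It was the lone called decrease among the 44. Its other probe sets differed by -0.36 each, one with a call and the other with a limma adjusted p of 0.0549 over all probe sets. Removing the second AID-/- array, or the second or last AID+/+ array, ended the call (limma adjusted p at most 0.0872), as did a fit without variance moderation (0.0543). Ndufv2, which carries an iron-sulphur cluster beside Ndufv1, differed by 0.08 with a 95% confidence interval of -0.12 to 0.28. Ndufs1, the large iron-sulphur subunit of the same module, differed by 0.07, with an interval of -0.12 to 0.26.

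The core subunits of the Q module that were measured, 3 in number, did not pass. Ndufs3 differed by 0.08 (95% confidence interval -0.17 to 0.33) and Ndufs7, which holds the iron-sulphur cluster next to ubiquinone, by 0.06 (-0.17 to 0.30). Their values overlapped between the groups. The other probe set of Ndufs7, also bright, went the opposite way, at -0.17 with non-overlapping groups (limma adjusted p = 0.262 over all probe sets), and the mean of both probe sets differed by -0.05. For Ndufs8, another iron-sulphur subunit, the values were 11.99, 11.67 and 11.91 on AID-/- arrays and 11.57, 11.50 and 11.65 on AID+/+ arrays. The groups did not overlap, but the difference of 0.29 (SE 0.11) did not pass (limma adjusted p = 0.116). All 6 probe sets of Ndufs8 had differences above 0, from 0.11 to 0.32.

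Accessory subunits of the matrix arm went both ways. Of 8 measured, Ndufs4 rose, or 12.5% against 9.93% of all genes, and the other 7 did not pass. Ndufs4, whose loss causes the mitochondrial disease Leigh syndrome, was at 9.90, 9.82 and 9.81 on AID-/- arrays and 9.50, 9.50 and 9.50 on AID+/+ arrays. The AID+/+ arrays were nearly equal (SD 0.0030), and the difference was 0.34 (SE 0.08, limma adjusted p = 0.0228). Removing any one of the 6 arrays ended this call (limma adjusted p at most 0.0773). Its 4 probe sets did not go the same way: a dim one differed by -0.30, and the mean of all 4 differed by 0.15 (limma adjusted p = 0.229). Ndufa12, Ndufa5 and Ndufa9 differed by 0.30, 0.30 and 0.28 with non-overlapping groups and adjusted p of 0.0563, 0.104 and 0.0768. For Ndufa12, which sits where the N and Q modules meet, another pair of probe sets did pass, with differences of 0.42 and 0.39 and limma adjusted p of 0.0142 and 0.0329 over all probe sets. In the other direction, Ndufv3, an N module subunit, was at 10.12, 10.26 and 10.45 on AID-/- arrays and 10.76, 10.50 and 10.82 on AID+/+ arrays. The groups did not overlap, but the difference of -0.42 (SE 0.12) just missed the threshold (limma adjusted p = 0.0525). Ndufa2 was also lower on each AID-/- array, at a difference of -0.26 that did not pass (limma adjusted p = 0.0846). Ndufa6 and Ndufa7 had overlapping groups and differences of -0.20 and 0.19 (limma adjusted p of 0.241 and 0.267). All 5 probe sets of Ndufa7 had differences above 0, from 0.18 to 0.29. The one at 0.29 had non-overlapping groups and did not pass (limma adjusted p = 0.0822 over all probe sets).

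Accessory subunits of the proximal membrane arm included genes that rose and genes near 0. Of 8 measured, Ndufc1, Ndufs5 and Ndufa3 rose, or 37.5% against 9.93% of all genes. Ndufc1, a small membrane-spanning subunit, was at 11.37, 11.27 and 11.36 on AID-/- arrays and 10.27, 10.70 and 10.82 on AID+/+ arrays. AID+/+ replicate 1 was the lowest array, and without it the gene was still called. The difference was 0.74 (SE 0.14, limma adjusted p = 0.00882), or 1.67-fold, and its other probe set rose by 0.66 (SE 0.09). Ndufs5, a subunit that faces the intermembrane space, was at 10.85, 10.90 and 10.92 on AID-/- arrays and 10.18, 10.16 and 10.26 on AID+/+ arrays. Both groups were tight, and Ndufs5 rose by 0.69 (SE 0.09, limma adjusted p = 0.00105), or 1.61-fold. For Ndufa3, a short membrane subunit, the arrays read 11.71, 11.83 and 11.82 on AID-/- arrays and 11.24, 11.24 and 11.29 on AID+/+ arrays. Ndufa3 rose by 0.53 (SE 0.09, limma adjusted p = 0.00382), and by 0.52 at its next probe set, while its dim remaining probe set at a mean of 4.60 differed by 0.09. Ndufa8, which like Ndufs5 faces the intermembrane space, differed by 0.29 with non-overlapping groups and missed the threshold (adjusted p = 0.0520). The remaining 4 had overlapping groups. Ndufa1, needed for assembly of the membrane arm, differed by -0.00 (95% confidence interval -0.23 to 0.23) and Ndufc2 by -0.01 (-0.20 to 0.18). Ndufa13 differed by -0.06 (-0.29 to 0.17) and Ndufa10 by -0.08 (-0.29 to 0.14). Another bright probe set of Ndufc2 differed by 0.19 with non-overlapping groups (limma adjusted p = 0.2 over all probe sets). Its other probe sets differed by 0.14 and 0.01 with overlapping groups.

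Accessory subunits of the distal membrane arm, the Ndufb genes, held the largest increase. Of 11 measured, 4 rose, or 36.4% against 9.93% of all genes, and 7 did not pass. Of the 11 differences 9 were above 0, against 43.9% of all genes. Ndufb2, a small membrane subunit, was at 10.29, 10.43 and 10.51 on AID-/- arrays and 9.47, 9.33 and 9.60 on AID+/+ arrays. The gap between the groups was wider than the range within either. Ndufb2 rose by 0.94 (SE 0.11, limma adjusted p = 0.000689), or 1.92-fold, and by 0.88 (SE 0.12) at another probe set, while the last one, at 6.13 to 6.74 on the 6 arrays, differed by -0.09. Ndufb1 was at 8.50, 8.38 and 8.46 on AID-/- arrays and 7.70, 7.79 and 7.76 on AID+/+ arrays, and rose by 0.70 (SE 0.09, limma adjusted p = 0.00113). Ndufb7, a subunit on the intermembrane side, was at 11.31, 11.48 and 11.48 on AID-/- arrays and 10.73, 10.77 and 10.96 on AID+/+ arrays. It rose by 0.60 (SE 0.10, limma adjusted p = 0.00478), and by 0.62 at its other probe set. Ndufb10, another subunit of that side, was at 10.25, 10.18 and 10.32 on AID-/- arrays and 9.74, 9.72 and 10.005 on AID+/+ arrays. AID+/+ replicate 3 was the highest of its group but still below every AID-/- array. The rise of Ndufb10 by 0.42 (SE 0.11, limma adjusted p = 0.0267) did not pass after removal of the first or last AID-/- array, or of the first or second AID+/+ array (limma adjusted p at most 0.0928), nor without variance moderation (0.0837).

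The other Ndufb genes that were bright lay between -0.08 and 0.33. Ndufb6, Ndufb9, Ndufb8 and Ndufb3 had differences of 0.33, 0.29, 0.25 and 0.25, all with non-overlapping groups, and did not pass. At another probe set the first 3 of these did pass, with differences of 0.37 for Ndufb6, 0.43 for Ndufb9 and 0.56 for a dim probe set of Ndufb8 (limma adjusted p of 0.0227, 0.0194 and 0.0381 over all probe sets). Ndufb11 and Ndufb5 differed by 0.12 and -0.08. Ndufb4 had the lowest difference of the 44, -0.51 (SE 0.17, limma adjusted p = 0.0744), but its probe set read 2.93 to 4.03 on the 6 arrays, near the lower end of the scale. Probe sets shared by several symbols were left out by the rule. There were 10 of these with an Nduf symbol, with means up to 11.03 and differences from -0.25 to 0.59, and 4 were called higher, against 7.24% of all probe sets.

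**Figure D2:**
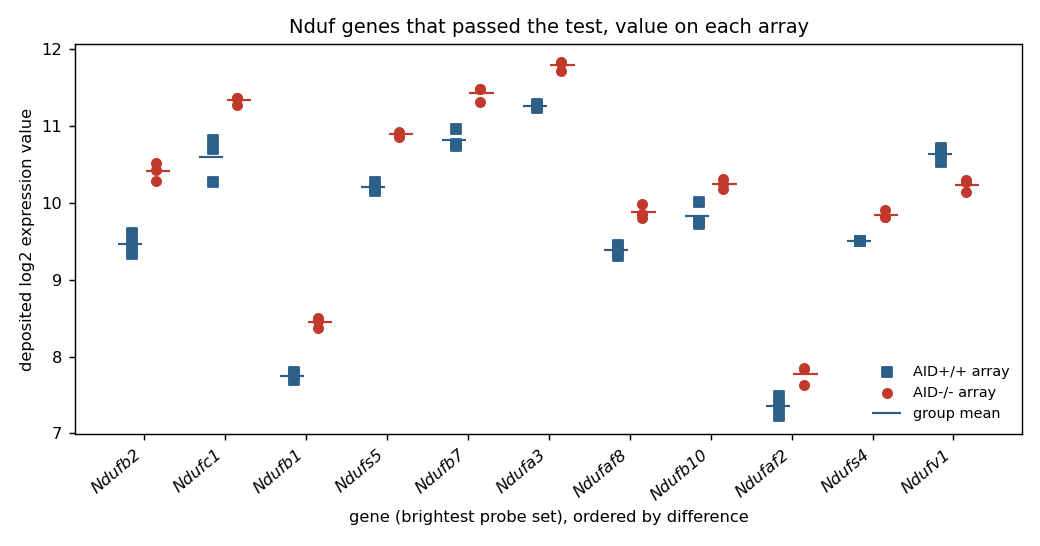
Deposited log2 value on each of the 6 arrays for the 11 Nduf genes that passed the test, ordered by difference, with squares for AID+/+ arrays, circles for AID-/- arrays and lines for group means. The groups do not overlap for any of the 11, and Ndufv1 is the gene where AID+/+ lies above; levels of different probe sets are not comparable with each other.

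Both arms can be set side by side. In the membrane arm 7 of 19 accessory genes, or 36.8%, rose, with a median difference of 0.29, against 9.93% of all genes. Among all genes with a mean above 10 the share was 14.1%, but not all 19 were that bright. Ndufb2 and Ndufb1, which rose, and Ndufb4 had means of 9.94, 8.10 and 3.43. In the matrix arm, core and accessory genes together, 1 of 14 rose and 1 fell, or 7.14% each, with a median of 0.08. Of all genes 9.93% were called higher and 8.21% lower, and of those with a mean above 10, 14.1% and 11.8%. Ndufs4, which rose, had a mean of 9.67. The difference between the arms was not tested. Ndufab1, the mitochondrial acyl carrier protein, which is found in both arms and also serves fatty acid synthesis, differed by 0.19 (SE 0.09, limma adjusted p = 0.202) with non-overlapping groups. Its direction rests on that probe set: the next brightest differed by 0.02 with overlapping groups, the most variable one, which is dim, by -0.42, and the mean of all 5 by -0.0294 (median difference of acyl carrier protein).

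Assembly factors leaned higher as well. Of 8, 2 rose, or 25% against 9.93% of all genes, and the other 6 did not pass. Their median difference was 0.28, and 7 of the 8 differences were above 0, against 43.9% of all genes. Ndufaf8, the partner of the enzyme Ndufaf5, was at 9.86, 9.80 and 9.98 on AID-/- arrays and 9.30, 9.41 and 9.46 on AID+/+ arrays. It rose by 0.49 (SE 0.10, limma adjusted p = 0.00868), or 1.40-fold, and by 0.43 at its other probe set. Ndufaf2, a paralog of Ndufa12 that acts late in assembly, was at 7.84, 7.85 and 7.63 on AID-/- arrays and 7.22, 7.49 and 7.36 on AID+/+ arrays. Its groups did not overlap, with AID-/- replicate 3 nearest to AID+/+. The rise of 0.41 (SE 0.11, limma adjusted p = 0.0328) did not pass after removal of the first or second AID-/- array, or of the first or last AID+/+ array (limma adjusted p at most 0.103), nor after quantile normalization (0.0514) or without variance moderation (0.10). Ndufaf3 (0.31), Ndufaf1 (0.28) and Ndufaf5 (0.27), an enzyme that modifies Ndufs7, had non-overlapping groups with limma adjusted p of 0.0548, 0.0703 and 0.0767. Ndufaf4, which works with Ndufaf3 on the Q module, differed by -0.19 in the opposite direction (adjusted p = 0.337), with overlapping groups. Its other probe set differed by -0.32 with non-overlapping groups (limma adjusted p = 0.0682 over all probe sets). Ndufaf6 and Ndufaf7 differed by 0.14 and 0.06.

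Both Nduf-named genes outside complex I missed the threshold. Ndufa4, now counted as a subunit of complex IV, was at 10.99, 10.84 and 10.98 on AID-/- arrays and 10.66, 10.59 and 10.66 on AID+/+ arrays. Its groups did not overlap and the difference of 0.30 (SE 0.09) just missed the threshold (limma adjusted p = 0.0525). Ndufa4l2, its hypoxia-inducible paralog, read 5.33 to 5.86 over all 6 arrays and differed by -0.04 (95% confidence interval -0.38 to 0.29). The X-linked genes, Ndufa1 and Ndufb11, did not pass, with a 95% confidence interval of -0.08 to 0.32 for Ndufb11.

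Most calls on genes with several probe sets were seen at more than 1 of them. Of the 88 probe sets, 20 were called higher and 2 lower, or 22.7% and 2.27%, against 7.24% and 7.39% of all 45037 probe sets. Of the 44 genes 22 had more than 1 probe set. Of the calls, those on Ndufb2, Ndufb7, Ndufc1, Ndufa3, Ndufaf8 and Ndufv1 were each seen at 2 probe sets, that on Ndufs4 at 1 of 4, and those on Ndufs5, Ndufb1, Ndufb10 and Ndufaf2 rest on a single probe set. The calls on Ndufb2, Ndufs5, Ndufb1, Ndufa3, Ndufb7 and Ndufaf8 held in each of the 6 fits that left out 1 array and under 11 other alternatives of fit, normalization and probe set, and the call on Ndufc1 in all but the fit without variance moderation (limma adjusted p = 0.0816).

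**Figure D3:**
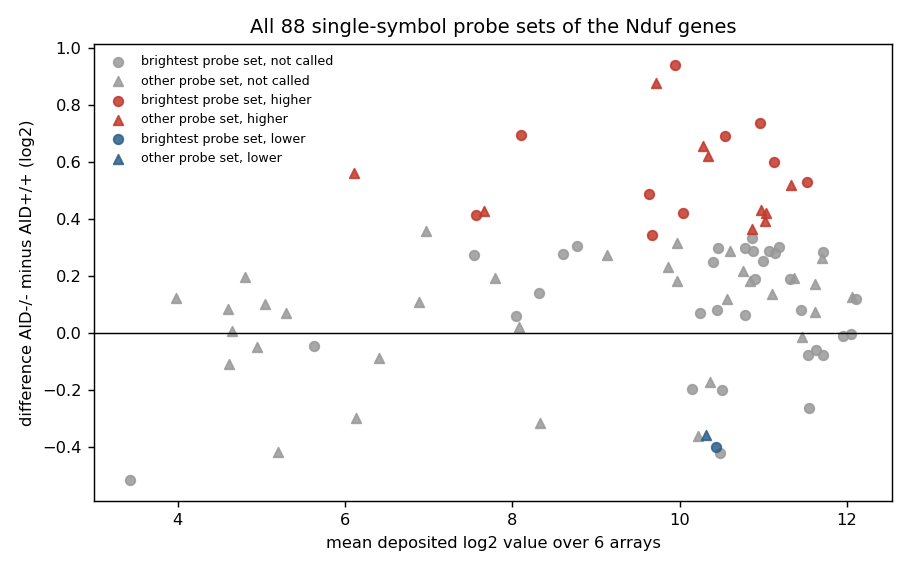
Difference between AID-/- and AID+/+ leukaemia (log2) against the mean deposited log2 value for all 88 single-symbol probe sets of the 44 genes, with circles for the brightest probe set of a gene and triangles for the others. Of the 88, 20 are called higher and 2 lower, and none of those with a mean under 6 is called (all with limma, over all probe sets).

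The count of genes higher and lower can be read against the background of each other fit. It was 14 and 1 with moderation over genes only (10.1% and 8.42% of all genes), 9 and 2 after quantile normalization (9.72% and 8.46%), 16 and 1 after median centring (11% and 7.36%) and 15 and 3 with an intensity trend (10.6% and 8.53%). It was 8 and 0 with no moderation (5.01% and 3.97%), 13 and 1 with array weights (11% and 8.88%), and 8 and 0 with the replicate number as a block (8.44% and 6.53%). With the probe set of highest variance it was 15 and 2 (12% and 10.7%), with the mean of probe sets 17 and 2 (9.67% and 8.93%), and with chromosomes X and Y left out 10 and 1 of 42 (10% and 8.21%). An adjusted p under 0.01 gave 7 and 0 (5.4% and 4.27%), and one under 0.10 gave 18 and 4 (12.7% and 11.7%). Where limma called 0 lower, 3 genes (no moderation) or 4 (the block and the 0.01 threshold) had an unadjusted p under 0.05 and lay lower.

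Leaving out an AID-/- array gave 7 and 1 for replicate 1 (9.87% and 7.17% of all genes), 9 and 0 for replicate 2 (8.33% and 6.57%) and 8 and 2 for replicate 3 (7.28% and 6.45%). Leaving out an AID+/+ array gave 7 and 1 for replicate 1 (7.49% and 6.21%), 8 and 1 for replicate 2 (7.34% and 6.08%) and 8 and 0 for replicate 3 (6.74% and 5.25%). In both fits with 0 lower, 3 genes lay lower at an unadjusted p under 0.05.

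The 44 genes lie on 18 chromosomes, and the 11 called genes on 10 of these. RefSeq (GRCm38.p6) gave a promoter window of 300 bases, 250 before and 50 after the gene start, for 39 of the 44 genes. Motifs of factors known to act on respiratory genes were searched on both strands, and matches may overlap. The NRF1 letters, GCGCA, any base and then GCGC, were found in 7 of 39 genes, or 17.9%, against 8.61% of 14452 genes with a window. The YY1 letters AAGATGGC were found in 7 of 39, or 17.9%, against 4.07%, the ETS letters CCGGAAG in 15.4% against 15%, and the ERR letters AAGGTCA in 7.69% against 4.61%. Of more general letters, CCAAT stood in 33.3% against 42%, GGGCGG in 53.8% against 57.3% and TATAAA in 10.3% against 11.5%. Of the 10 genes that rose, 4 held the YY1 letters, 2 the ETS letters, 2 the ERR letters and 1 the NRF1 letters. CCAAT stood in 3 of the 10, GGGCGG in 3 and TATAAA in 2. The shares of all genes above are the background for these counts, which were not tested. These matches are descriptions of sequence, and binding was not measured.

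The stretches before the start of the largest increase (Ndufb2), of 2 other genes that rose (Ndufs5, which shares the ERR letters and also has the NRF1 letters, and Ndufb7, which has the ETS letters) and of the gene that fell (Ndufv1) are shown so that they can be compared. They lie in GRCm38.p6 at chr6:39592315-39592564 on the plus strand for Ndufb2, chr4:123718187-123718436 on the minus strand for Ndufs5, chr8:83566508-83566757 on the plus strand for Ndufb7 and chr19:4012756-4013005 on the minus strand for Ndufv1. Each is written 5′ to 3′ on the strand of the gene and ends at the base before the start. Capitals mark the ERR letters in Ndufb2 at -181, the ERR and NRF1 letters in Ndufs5 at -228 and -98, and the ETS letters in Ndufb7 at -20 (the ERR letters of Ndufs5 are on the opposite strand, as TGACCTT), while Ndufv1 has none of the NRF1, YY1, ETS or ERR letters in its window.
Ndufb2: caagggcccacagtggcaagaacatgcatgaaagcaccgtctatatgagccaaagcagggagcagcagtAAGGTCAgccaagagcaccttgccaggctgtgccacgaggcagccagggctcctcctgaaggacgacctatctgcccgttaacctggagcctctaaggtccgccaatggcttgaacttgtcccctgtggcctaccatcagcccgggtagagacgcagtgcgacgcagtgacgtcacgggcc
Ndufs5: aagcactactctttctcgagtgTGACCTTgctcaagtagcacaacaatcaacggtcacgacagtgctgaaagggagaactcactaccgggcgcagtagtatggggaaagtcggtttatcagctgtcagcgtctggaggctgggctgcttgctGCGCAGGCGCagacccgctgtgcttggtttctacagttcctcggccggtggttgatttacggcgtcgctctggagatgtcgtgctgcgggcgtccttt
Ndufb7: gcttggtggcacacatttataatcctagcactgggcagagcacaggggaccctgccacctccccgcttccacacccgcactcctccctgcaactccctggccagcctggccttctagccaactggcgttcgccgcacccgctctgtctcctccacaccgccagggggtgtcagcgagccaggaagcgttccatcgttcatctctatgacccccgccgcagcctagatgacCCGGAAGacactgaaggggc
Ndufv1: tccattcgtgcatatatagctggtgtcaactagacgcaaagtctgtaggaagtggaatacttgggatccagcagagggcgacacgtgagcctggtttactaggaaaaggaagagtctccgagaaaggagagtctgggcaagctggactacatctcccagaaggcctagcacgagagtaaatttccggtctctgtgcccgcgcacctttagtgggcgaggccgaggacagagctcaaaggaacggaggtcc

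In each of the 4 genes that rose and hold the YY1 letters, these came just after the gene start, at 23 in Ndufc1 and Ndufa3, 36 in Ndufs4 and 11 in Ndufaf8, counted from 1 at the start. The stretches of 27 bases below are in GRCm38.p6 at chr3:51408919-51408945 (minus strand, Ndufc1), chr7:3617383-3617409 (plus strand, Ndufa3), chr13:114388045-114388071 (minus strand, Ndufs4) and chr11:120098932-120098958 (plus strand, Ndufaf8), with the YY1 letters in capitals. All 4 have them in the same orientation. Ndufa9, Ndufb8 and Ndufs7 also hold the YY1 letters but were not called, and their stretches are not shown. The position and orientation of these letters over all genes are not given here.
Ndufc1: agcctgcggaacAAGATGGCgccgtcc
Ndufa3: gccgccaagaacAAGATGGCcgggagt
Ndufs4: tttgcctacaggAAGATGGCggcggtc
Ndufaf8: gaggcagggcccAAGATGGCggcgccc

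Among complex I assembly factors with other names, 1 of 13 rose and 1 fell, or 7.69% each, near the 9.93% and 8.21% of all genes. Tmem126a, which acts in building the distal membrane arm, read 9.74 ± 0.17 on AID-/- arrays against 4.52 ± 0.41 on AID+/+ arrays (SD, n = 3 arrays), a difference of 5.23 (SE 0.20, limma adjusted p = 1.58e-06) at its only probe set. Its AID+/+ value is low on the scale, so the size is approximate. Dmac2, another factor of the distal membrane arm, fell by 0.54 (SE 0.11, limma adjusted p = 0.0103). The other 11, which include the partners of Ndufaf1, did not pass. Of the subunits encoded in mitochondrial DNA, ND5 was measured, at a difference of -0.29 (SE 0.11) that did not pass (limma adjusted p = 0.0996).

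Pooled, though not in each list, the genes of the other lists had a median nearer to 0, with more calls higher than lower. Of 100 genes in the other lists, 15 rose and 5 fell, with a median difference of 0.06, against 9.93% and 8.21% of all genes. The 15 became 6 and 4 with the second and last AID-/- array removed, and 6, 6 and 8 with the first, second and last AID+/+ array removed. Over all fits with 1 array left out the count ran from 4 to 13. In those fits 6.74% to 9.87% of all genes were called higher. ATP synthase had 5 of 17 genes higher and 1 lower, or 29.4% and 5.88%, with a median of 0.18. This was close to the 34 complex I subunits, with 23.5% higher, 2.94% lower and a median of 0.22. Atp5g1, which encodes the membrane ring subunit, rose by 0.59 (SE 0.08, limma adjusted p = 0.00191), Atp5e, of the central stalk, by 0.51 and Atp5l, a membrane subunit, by 0.42, while Atp5a1, the alpha subunit of the catalytic head, fell by 0.37 (SE 0.08, limma adjusted p = 0.0167). In complex III 2 of 15 rose, Uqcr11 by 0.48 and Uqcc1 by 0.39, and in complex IV 3 of 21 rose, Cox5b by 0.38, Cox7a2 by 0.35 and Cox19 by 0.34. In complex II the assembly factor Sdhaf3 fell by 0.30 and the other 7 genes did not pass.

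Of 11 general mitochondrial markers 2 rose and 1 fell, or 18.2% and 9.09%, against 9.93% and 8.21% of all genes. Cycs (cytochrome c) and Timm23 (an import channel) rose by 0.34 and 0.33. Hspa9, the matrix chaperone, fell by 0.64 (SE 0.08, limma adjusted p = 0.00131), and the list median was 0.04. Ribosomal protein genes were added for comparison after the data were seen. In the mitochondrial ribosome 27 of 76 genes, or 35.5%, rose, with a median difference of 0.25. In the cytosolic ribosome 5 of 47, or 10.6%, rose and 1 fell, with a median of -0.04. Among 14 regulators of mitochondrial gene expression 2 rose and 1 fell, or 14.3% and 7.14%, near the shares of all genes. Ppargc1a, the coactivator PGC-1 alpha, read 6.20 ± 0.20 on AID-/- arrays against 3.25 ± 0.27 on AID+/+ arrays (SD, n = 3 arrays), a difference of 2.96 (SE 0.16, limma adjusted p = 9.86e-06). Its 5 probe sets rose by 2.07 to 2.96, from AID+/+ levels near the floor. Its relative Ppargc1b fell by 0.80 (SE 0.17, limma adjusted p = 0.0126), and Nfe2l2, a regulator of antioxidant genes, rose by 0.67 (SE 0.10). Whether any of these is related to the complex I genes was not tested.

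**Figure D4:**
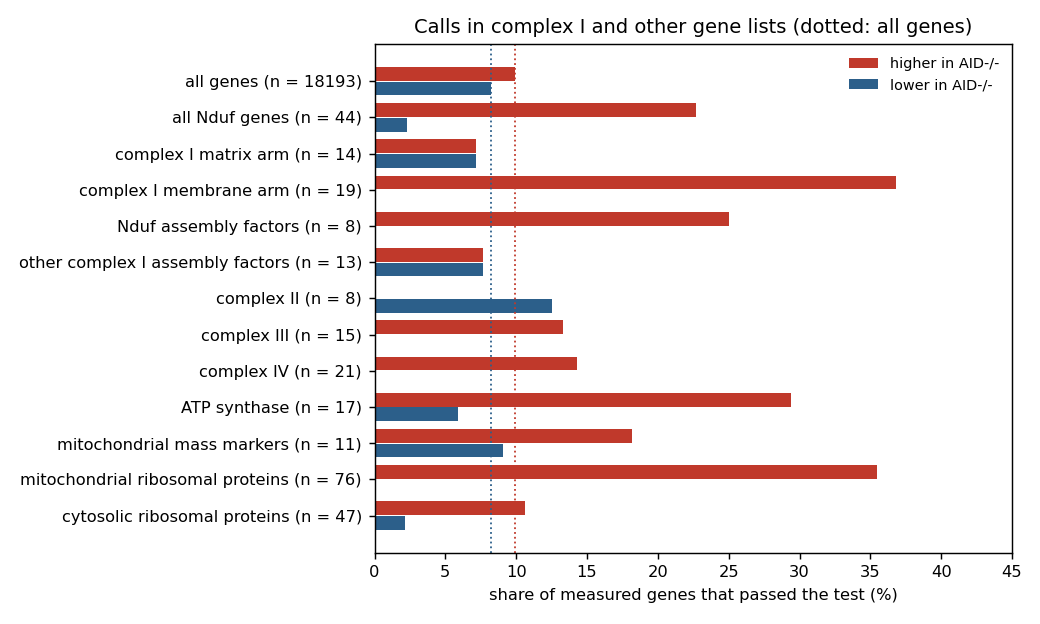
Share of measured genes called higher (upper bars) and lower (lower bars) in AID-/- leukaemia, in percent, for complex I by arm, its assembly factors, the other complexes and the comparison lists, with the number measured in brackets and dotted lines at the shares of all genes (9.93% and 8.21%). The membrane arm (36.8%) and the mitochondrial ribosome (35.5%) have the highest shares called higher of the lists shown.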

How the data were processed

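Gene expression was read on 6 Affymetrix arrays, 3 per group by title. Values were used as deposited, on a log2 scale. RMA and Partek are listed, with neither version nor order, per the submitters' processing notes. The 64 array controls among 45101 probe sets did not enter, and the other 45037 were fitted together with limma 3.58.1 in R 4.3.3 (group as the only term, eBayes, two-sided). P-values of the brightest probe set of each of 18193 genes were adjusted by Benjamini-Hochberg. Probe set annotation gave 34945 probe sets 1 symbol and 932 several, and 9160 were not named. An Entrez identifier matched 34741 probe sets to RefSeq (GRCm38.p6). Depth has no meaning for arrays, and their number limits the precision. No detection calls were used. The fit was tested on simulated data.

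The members and lists were chosen with earlier results of these data known, so lists are described by counts and medians and were not tested. The rule for names took every called member, the core subunits, members with another called probe set, Ndufa4, Ndufa4l2, Ndufa12, Ndufaf2, X-linked members, the members with the highest and lowest mean, and up to 4 called genes of each other list with the smallest p. The remaining members are named as well, to account for each, after their values were seen. Alternatives are listed in the closing section.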

Additional observations from a re-analysis of the deposited data

How the results depend on the processing

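Counts of complex I genes higher and lower were 10 and 1 as reported, 16 and 1 with median centring, 9 and 2 with quantile normalization, 15 and 2 without dim probe sets, 15 and 3 with an intensity trend, 17 and 2 with the mean of probe sets, 15 and 2 with the probe set of highest variance, 13 and 1 with array weights, 14 and 1 with moderation over genes only (added after seeing the data), 8 and 0 without moderation, 7 and 0 at an adjusted p under 0.01, and 18 and 4 under 0.10. With the replicate block they were 8 and 0, with the calls on Ndufaf2, Ndufs4 and Ndufv1 lost. The replicate numbers did not pair the arrays: same-numbered arrays correlated at -0.05, -0.07 and 0.03 in their deviations from group means. Where limma called 0 lower, 3 genes (no moderation) or 4 (the block, and the 0.01 threshold) had an unadjusted p under 0.05. Removing single arrays left 7 to 9 higher and 0 to 2 lower (0 had 3 genes at an unadjusted p under 0.05). In the other lists, 15 higher and 5 lower became 11 and 3 without moderation, 8 and 3 with the replicate block, 19 and 8 with the probe set of highest variance, 4 and 1 under 0.01 and 23 and 8 under 0.10, while removing single arrays gave 4 to 13 higher and 2 to 4 lower.

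The median of the 44 genes ranged from 0.194 to 0.275 with 1 array left out. Medians of roles that moved beyond the spread of the arrays were those of the proximal membrane arm (0.14 as reported, 0.21 with the probe set of highest variance, 0.19 with the mean of probe sets, 0.29 without chromosomes X and Y), the distal membrane arm (0.42 with the probe set of highest variance), the matrix accessory subunits (0.18 with the mean of probe sets), Ndufab1 (median difference of acyl carrier protein -0.417 and -0.0294 in those fits, where dim probe sets enter), and, with 1 array left out, the core N module (0.032 to 0.076) and core Q module (0.045 to 0.160). No called difference changed sign in any alternative run. Updating symbols gave the same 44 genes. The cause of the other shifts was not tested.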
